A study of Mus musculus with 35 samples.

Results

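Of 55487 genes, 9 genes of cardiac calcium handling and ion channels are described here, Ryr2, Casq2, Hrc, Atp2a2, Pln, Cacna1c, Slc8a1, Kcnj2 and Camk2d. They were taken by gene symbol from 4 deposited tables of whole-number read counts that share the same 55487 genes. Each of the 9 symbols matched 1 row in every table. The study behind these tables concerned IAMP, a micropeptide of the mouse gene 4930523C07Rik, in the hearts of mice that lack it and in cardiac fibroblasts (CFs) after its knockdown. RNA-Seq of hearts gave 8 libraries, 4 from heterozygous controls (Het) and 4 from IAMP-KO mice on a C57BL/6 background at 8 weeks of age. The KO allele is a CRISPR/Cas9 frameshift, which the Het controls carry on 1 of 2 copies. RNA-Seq of CFs gave 27 libraries. These were adult mouse ventricular noncardiomyocytes that adhered to plates within 3 h and were passaged before transfection. They fall into 3 conditions, untreated, IL-17 and TGF-β. In every condition, 3 libraries each came from a nontargeting control (Scrambled) and from 2 siRNAs to IAMP, named siR-1 and siR-2 here. For IL-17 the labels give 24 h of siRNA followed by 24 h of the cytokine. The labels do not say whether the 3 libraries of a group came from separate cultures, so p-values measure the spread between these libraries, which may be technical.

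In a heart muscle cell, each beat begins when depolarization opens the L-type calcium channel, whose pore is the Cacna1c product, and the calcium that enters opens the ryanodine receptor RyR2 in the sarcoplasmic reticulum (SR). Calsequestrin 2 (Casq2) binds calcium inside the SR, and the histidine-rich calcium binding protein (Hrc) lies in the same lumen. SERCA2, the product of Atp2a2, pumps calcium back, phospholamban (Pln) holds that pump in check, and the sodium-calcium exchanger NCX1 (Slc8a1) carries calcium out of the cell. The inward rectifier Kir2.1 (Kcnj2) sets the resting potential, and the kinase CaMKIIδ (Camk2d) phosphorylates several of these proteins. SERCA2, NCX1 and CaMKIIδ also serve cells that do not contract, whereas calsequestrin 2 and phospholamban are known chiefly from striated or smooth muscle.

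A heart library held 23497027 to 23857313 counts and a CF library 104139670 to 119232309 estimated counts, of which 1 read pair stands for up to 6, judged from the lowest values. Values were taken as above the floor from more than 3 counts in hearts and more than 18 estimated counts, or 3 read pairs, in CFs. Levels are counts per 1000000 counts of a library (CPM) after TMM normalization within each table. The IAMP transcript stood at 15.9 to 18.8 CPM in Het and 15.2 to 17.2 CPM in KO hearts, and a frameshift leaves the transcript to be counted, so this does not check the genotypes. In untreated CFs it stood at 21.9 to 25.7 CPM with Scrambled, 2.52 to 3.52 under siR-1 and 1.76 to 1.87 with siR-2. All 12 cardiomyocyte markers examined were above the floor in every heart. In CFs their sum was carried by Tnnt2, whereas Myh6, Myl3 and Ckm stayed below the floor in all 27 libraries, and the fibroblast markers summed to 8634 CPM or more.

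Promoter sequences of the 9 genes were taken from RefSeq (GRCm38.p6), which gave 10 entries for 8 of them and none for Atp2a2. The 4 shown here belong to Pln, which was abundant in hearts and near the floor in CFs, and to Cacna1c, Slc8a1 and Kcnj2, which differed between siRNAs in CFs. Each runs 5′ to 3′ from 250 bases before the transcription start and ends at the start or, for Pln and Cacna1c, at the first annotated exon. Capitals mark matches on either strand to a GC box (GGGCGG) or a TATA box (TATAAA).
Pln (chr10:53337436-53337666, plus strand, 231 bases): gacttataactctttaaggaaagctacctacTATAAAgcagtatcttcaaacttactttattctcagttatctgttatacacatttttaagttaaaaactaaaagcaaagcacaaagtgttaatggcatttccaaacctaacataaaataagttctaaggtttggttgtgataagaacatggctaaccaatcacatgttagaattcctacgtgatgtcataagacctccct
Cacna1c (chr6:119108574-119108745, minus strand, 172 bases): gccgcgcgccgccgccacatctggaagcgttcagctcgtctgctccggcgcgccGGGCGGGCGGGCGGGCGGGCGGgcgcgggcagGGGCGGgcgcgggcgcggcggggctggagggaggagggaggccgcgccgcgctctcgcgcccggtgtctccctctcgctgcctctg
Slc8a1 (chr17:81738388-81738637, minus strand, 250 bases): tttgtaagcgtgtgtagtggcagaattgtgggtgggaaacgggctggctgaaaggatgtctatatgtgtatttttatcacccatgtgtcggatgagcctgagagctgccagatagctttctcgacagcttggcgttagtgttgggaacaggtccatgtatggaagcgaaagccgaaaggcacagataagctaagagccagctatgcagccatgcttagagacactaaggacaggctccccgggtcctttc
Kcnj2 (chr11:111065914-111066163, plus strand, 250 bases): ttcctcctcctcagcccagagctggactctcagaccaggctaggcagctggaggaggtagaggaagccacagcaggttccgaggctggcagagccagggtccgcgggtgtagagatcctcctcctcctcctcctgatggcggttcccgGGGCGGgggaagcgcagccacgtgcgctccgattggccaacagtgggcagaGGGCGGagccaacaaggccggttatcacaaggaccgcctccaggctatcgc
The 4 differ in base composition. Over the 250 bases before the start, the Pln promoter held 1 CpG, that of Slc8a1 8, that of Kcnj2 14 and this one of 3 Cacna1c promoters 48, beside a median of 6 over 32851 promoters. This Cacna1c promoter carried 6 GC boxes, the first 5 in an overlapping row. That of Kcnj2 carried 2, and those of Pln and Slc8a1 none, where 32.7% of all promoters hold at least 1. Camk2d also differed between siRNAs in untreated and IL-17 CFs, and its promoter, not shown, held 23 CpG and 3 GC boxes. The Cacna1c promoters not shown held 5 and 2 CpG and 0 GC boxes, and which start the samples used was not tested. Pln held the only TATA box, at positions −219 to −214 from the start and so not at the usual distance, and 12.4% of all promoters hold this motif. No member window held an M-CAT motif (CATTCC), an AP-1 site (TGANTCA), a CArG box or an MEF2 site, which occur in 12.6%, 6.75%, 1.47% and 0.508% of promoters. E-boxes (CANNTG) occurred in 9 of the 10 member windows and in 66.2% of all. These are matches of letters only.

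In control hearts the 9 genes spanned a wide range, with the SR pump and its inhibitor at the top and the kinase at the bottom when level was taken per length. Per kb of annotated exon (GENCODE vM21), the Het hearts held 1469.6 ± 48.9 CPM per kb of Atp2a2 (SD, n = 4) and 1379 ± 97.1 of Pln. These 2 overlapped in range. Casq2 and Hrc, the calcium buffers of the SR lumen, followed at 204 ± 5.67 and 203 ± 7.51 CPM per kb and also overlapped. Ryr2 stood at 28.8 ± 1.73 CPM per kb, apart from its neighbours on either side. The sarcolemmal genes Cacna1c and Slc8a1 stood at 11.3 ± 0.836 and 10.01 ± 0.383 CPM per kb with overlapping ranges. Kcnj2 at 5.33 ± 0.155 and Camk2d at 3.56 ± 0.192 CPM per kb closed the order and did not overlap. The Ryr2 (28790 bases), Camk2d (22493 bases), Cacna1c (21191 bases) and Slc8a1 (18807 bases) exon lengths join all annotated transcripts, which lowers a level per kb where shorter forms are used. Without the division by length, Camk2d stood above Kcnj2 in Het hearts, at a mean of 80.0 against 29.0 CPM.

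The calcium release genes of the heart overlapped in level between KO and Het animals. Ryr2 (chromosome 13, 11553102 to 12106945 on the minus strand, GRCm38), the SR release channel, stood at 895, 843, 796 and 786 CPM in the Het hearts and at 826, 845, 819.6 and 826 CPM in the KO hearts. All 4 KO hearts lay inside the range of the Het hearts, and the log2 fold change was −0.0018 (standard error 0.0467). Casq2 (chromosome 3, 102086415 to 102146514 on the plus strand) stood at 553, 580.1, 544 and 559 CPM in the Het hearts and at 496, 602, 532 and 547 CPM in the KO hearts. The KO hearts spread more widely than the Het hearts, to both sides of them, with a log2 fold change of −0.039 (standard error 0.0572). Hrc (chromosome 7, 45335290 to 45338974 on the plus strand) stood at 546, 526, 504 and 507 CPM in the Het hearts and at 553, 541, 545 and 539 CPM in the KO hearts. The KO hearts sat in the upper part of the Het range or just above it, with a log2 fold change of 0.064 (standard error 0.0387).

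The uptake genes were the most abundant of the 9, and KO and Het hearts overlapped for both. Atp2a2 (chromosome 5, 122453513 to 122502225 on the minus strand), which encodes the SERCA2 pump, stood at 8751, 9378, 8764 and 8854 CPM in the Het hearts and at 8793, 9432, 8939.8 and 8893 CPM in the KO hearts. In each genotype 1 heart stood highest, Het 1147 and KO 1149 by the numbers of the table's columns, and the groups overlapped throughout, with a log2 fold change of 0.012 (standard error 0.0438). Pln (chromosome 10, 53337667 to 53345987 on the plus strand), its inhibitor, stood at 3771, 4035, 3973 and 3440.0 CPM in the Het hearts and at 3828, 3847, 4077 and 3911 CPM in the KO hearts. The lowest value was that of Het 1150, the other 7 hearts lay together, and the log2 fold change was 0.041 (standard error 0.0535). Exons of Pln share 1644 of 2759 bases with Gm47644 and 141 with Cep85l, which lie on the opposite strand, and the strand setting of the counting is not given in the sources used here.

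Channels and the exchanger of the surface membrane overlapped between genotypes as well. Cacna1c (chromosome 6, 118587240 to 119196418 on the minus strand) stood at 214, 251, 239.5 and 251 CPM in the Het hearts and at 243, 268, 254 and 236 CPM in the KO hearts, and Slc8a1 (chromosome 17, 81373105 to 81738377 on the minus strand) at 191, 196, 179 and 187 CPM in the Het hearts and at 191, 214, 186 and 185 CPM in the KO hearts. Both groups overlapped for each gene, with log2 fold changes of 0.067 (standard error 0.0610) and 0.041 (standard error 0.0544). Kcnj2 (chromosome 11, 111066164 to 111076821 on the plus strand), the Kir2.1 channel, stood at 29.4, 29.3, 29.5 and 27.7 CPM in the Het hearts and at 35.4, 30.8, 37.2 and 29.0 CPM in the KO hearts. The Het hearts lay tightly together, 3 of the 4 KO hearts lay above all of them and 1 lay among them. Its log2 fold change of 0.19 (standard error 0.0772) was the largest of the 9, with an unadjusted p of 0.0318 and an adjusted p of 0.99997 by the quasi-likelihood test of edgeR after Benjamini-Hochberg correction. Camk2d (chromosome 3, 126596302 to 126846326 on the plus strand), the CaMKIIδ gene, stood at 74.3, 84.6, 79.8 and 81.5 CPM in the Het hearts and at 72.4, 79.1, 81.3 and 77.2 CPM in the KO hearts and overlapped, with a log2 fold change of −0.047 (standard error 0.0535).

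None of the 9 genes passed an adjusted p of 0.05 between KO and Het hearts by the quasi-likelihood test of edgeR after Benjamini-Hochberg correction. The background was the same, since 0% of the 16675 genes tested were called higher and 0% lower. Before adjustment 601 genes had a p under 0.05, of which Kcnj2 was the 1 member. DESeq2 called 5 genes in the whole table and 0 members. The median log2 fold change of the 9 was 0.041, beside −0.0011 over all genes tested. Their log2 fold changes ran from −0.047 to 0.19 with standard errors of 0.0387 to 0.0772, which sets the size of difference that 4 hearts a group could show. The atrial markers, which depend on how much atrium a sample holds, summed to 255 to 638 CPM in Het and 241 to 372 in KO hearts, and all 8 hearts were of 1 sex by their Y-linked genes and Xist. In bulk tissue, fewer cells of a type and less RNA per cell cannot be told apart.

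**Figure D1:**
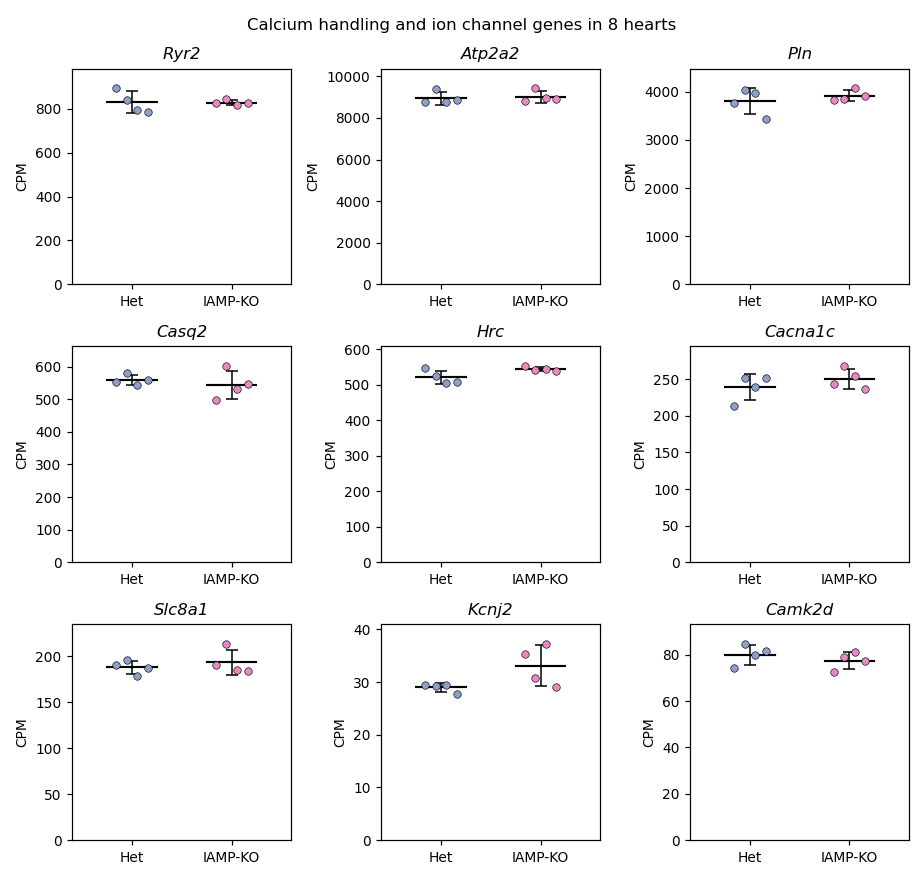
CPM of the 9 genes in each heart library (y axes, linear from 0), with Het hearts on the left and IAMP-KO hearts on the right of each panel. Points are hearts, long bars the mean and error bars the SD (n = 4 each); the points of both genotypes overlap in all 9 panels, and Kcnj2 shows the widest shift of the mean.

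The same held for other genes of the pathway. Of 120 further genes in 8 lists, covering SR release and store, SERCA and its regulators, voltage-gated calcium channel subunits, plasma membrane pumps and exchangers, potassium channels, sodium and pacemaker channels, CaMKII, PKA and beta-adrenergic control, and store-operated entry, IP3 receptors and TRP channels, 113 were tested in hearts and 0 were called in either direction by the quasi-likelihood test of edgeR after Benjamini-Hochberg correction, with a median log2 fold change of −0.0041. Among the 3 with the lowest p was Pde3a, a cAMP phosphodiesterase of the SR, at 56.5, 57.0, 59.5 and 54.1 CPM in Het and 63.0, 61.2, 66.8 and 58.6 CPM in KO hearts (log2 fold change 0.14, standard error 0.0509, unadjusted p = 0.0228 and adjusted p = 0.99997, edgeR). The 2 genotypes overlapped in range.

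Across the 8 hearts, the genes whose log2 CPM ran most closely with the mean of the 9 standardized members were Tmco3 (Pearson r 0.96), Laptm4a (Pearson r 0.95), 4833439L19Rik (Pearson r 0.95), Dr1 (Pearson r 0.94) and Appbp2 (Pearson r 0.94), out of 7859 genes of at least 10 CPM. Member by member, the closest gene was Scn4b for Ryr2 (r 0.96), Timm23 for Casq2 (r 0.97), Vps11 for Hrc (r 0.99), Desi2 for Atp2a2 (r 0.96), Gabarap for Pln (r 0.97), Sgta for Cacna1c (r 0.98), Surf4 for Slc8a1 (r 0.98), Pde3a for Kcnj2 (r 0.93) and Ppif for Camk2d (r 0.95). No gene was closest to more than 1 member. Among the members, Pearson's r over the 8 hearts ran from −0.58 (Casq2 with Kcnj2) to 0.80 (Atp2a2 with Slc8a1). These are the highest of many correlations over 8 points that share normalization and describe these libraries only.

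In CFs the 9 genes split into those that fibroblasts expressed and those at or near the floor. In untreated Scrambled CFs, Atp2a2 led at 92.7 ± 1.39 CPM per kb (SD, n = 3), followed by Camk2d at 5.78 ± 0.265. Slc8a1 at 0.809 ± 0.0241 and Cacna1c at 0.737 ± 0.117 CPM per kb came next and overlapped in range. Casq2, Kcnj2, Pln, Ryr2 and Hrc were at 0.172 ± 0.0355, 0.0768 ± 0.0206, 0.0715 ± 0.0377, 0.0210 ± 0.00927 and 0.0127 ± 0.0110 CPM per kb. The last 5 were not all resolved, since the ranges of Kcnj2 and Pln and those of Ryr2 and Hrc overlapped. Against the order in hearts, Camk2d stood in the second place instead of the last. As levels in CPM, Camk2d was 0.616 times as high in Het hearts as in untreated Scrambled CFs, against 12.4 times for Slc8a1, 15.3 for Cacna1c, 15.9 for Atp2a2, 69.3 for Kcnj2, 1186 for Casq2 and 1371 for Ryr2. Tissue and culture were sequenced and counted separately, so these ratios carry no test. Every library of a group was above the floor for 6 to 8 of the 9 genes, depending on the group.

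**Figure D2:**
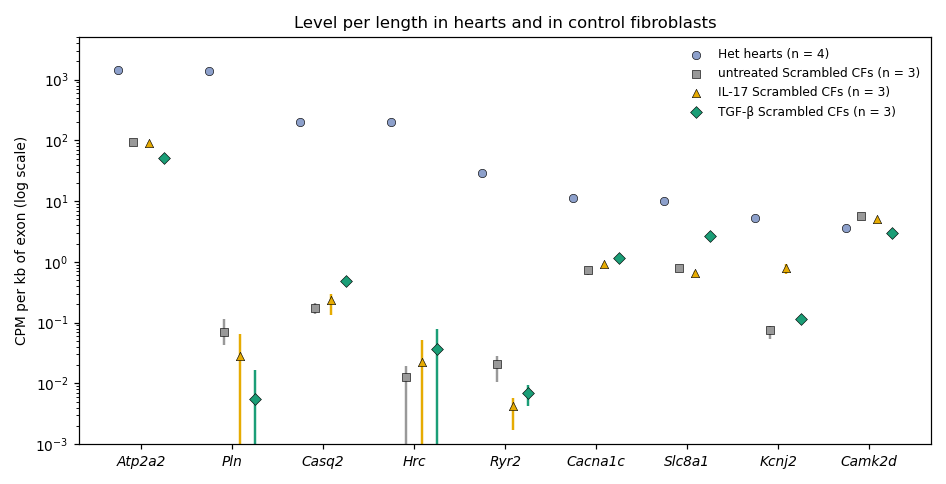
Mean level of each gene in CPM per kb of exon (y axis, log scale) in Het hearts (n = 4) and in Scrambled CFs that were untreated, given IL-17 or given TGF-β (n = 3 each); vertical lines span the lowest to the highest library and reach the bottom of the axis where a library was at 0. Camk2d is the 1 gene whose untreated CF level lies above its heart level, while Pln, Casq2, Hrc and Ryr2 lie far below theirs.

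Both siRNAs moved members of the set to either side, in tables where large shares of all genes were called. In untreated CFs, with calls by the quasi-likelihood test of edgeR after Benjamini-Hochberg correction, siR-1 raised 2 of the 8 members tested and lowered 2 relative to Scrambled, where 19.5% and 20.4% of all 19669 genes tested were called. With siR-2, 3 of the 8 members tested were higher and 2 lower, where 24.4% and 25% of all 19669 genes tested were. In IL-17 CFs, 3 of the 8 members tested were higher and 2 lower, where 20.3% and 21.9% of all 19906 genes tested were called with siR-1. With siR-2 and IL-17, 3 were higher and 2 lower, beside 25% and 25.6% of all genes. In TGF-β CFs, siR-1 gave 2 higher and 2 lower, beside 11.7% and 11.4% of 19891 genes, and siR-2 gave 1 higher and 3 lower, beside 15.1% and 14.8%. Hrc in untreated CFs and Pln in IL-17 and TGF-β CFs did not pass the filter on low counts. The 2 comparisons of a table share their Scrambled libraries.

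The siRNAs also differed from each other. With siR-2 against siR-1, 2 members were higher and 3 lower in untreated CFs (22.7% and 22.8% of all genes), 2 and 2 in IL-17 CFs (23.1% and 23.1%), and 0 and 2 in TGF-β CFs (12% and 12%). Whether a stimulus altered an siRNA effect was tested in 1 fit over 18 libraries. No member was called for IL-17 with siR-1 or with siR-2 in edgeR, beside 2.13% and 1.89% of all genes. Before adjustment 3 and 2 of the 9 members had a p under 0.05 in that test, beside 2517 and 2055 of 21219 genes. DESeq2 called 1 member with siR-1, Atp2a2, where it called 302 genes higher and 440 lower. With siR-2 it called no member, where 182 genes were higher and 393 lower. For TGF-β, 2 of 9 members were called with each siRNA, beside 19.6% and 30.2% of all genes. The TGF-β libraries form a table of their own whose marker levels also differed, with Tnnt2 at 4.53 to 4.98 CPM in Scrambled CFs against 88.7 to 97.3 CPM in the untreated table, so that stimulus and table cannot be told apart.

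Atp2a2, the SERCA2 pump, rose with both siRNAs in all 3 conditions, by less than 1.5-fold. In untreated CFs it stood at 571, 565 and 554 CPM with Scrambled, 738, 737 and 739 CPM under siR-1 and 683, 687 and 664 CPM with siR-2. Every knockdown library lay above every Scrambled library, and the log2 fold changes were 0.38 with siR-1 (standard error 0.0265, adjusted p = 5.83e-09) and 0.26 with siR-2 (standard error 0.0265, adjusted p = 3.63e-07) in edgeR. With IL-17, Atp2a2 stood at 556, 544 and 569 CPM with Scrambled, 672, 674 and 649.8 CPM under siR-1 and 641, 653 and 634 CPM with siR-2. Every knockdown library again lay above every Scrambled library, whereas the siR-1 and siR-2 libraries overlapped. The log2 fold changes against Scrambled were 0.26 and 0.20 (adjusted p = 5.07e-07 and 7.91e-06, edgeR). In TGF-β CFs it stood at 301, 326 and 313 CPM with Scrambled, 357, 349.7 and 360.1 CPM under siR-1 and 358, 349 and 363 CPM with siR-2. Scrambled CFs of the TGF-β table thus held 0.556 times the untreated level, and the rises were 0.18 and 0.19 on the log2 scale (adjusted p = 0.000929 and 0.000419, edgeR). The siR-1 effect was lower under TGF-β than without stimulus, with a difference of −0.21 log2 (standard error 0.0430, adjusted p = 0.000833, edgeR), and the siR-2 effect differed by −0.088 (adjusted p = 0.135, same test). Without replicate 1 of Scrambled TGF-β the latter also passed, at an adjusted p of 0.047.

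Slc8a1, the sodium-calcium exchanger NCX1, was raised about 2-fold by siR-1 in untreated and IL-17 CFs, and the 2 siRNAs moved it to opposite sides under TGF-β. In untreated CFs it stood at 14.9, 15.7 and 15.0 CPM with Scrambled, 32.7, 31.3 and 32.8 CPM under siR-1 and 17.9, 18.03 and 19.6 CPM with siR-2. The 3 groups did not overlap, siR-1 being highest, and the log2 fold changes were 1.08 with siR-1 (standard error 0.0569, adjusted p = 2.05e-10) and 0.27 with siR-2 (standard error 0.0569, adjusted p = 0.000647) in edgeR. In IL-17 CFs it stood at 13.3, 12.3 and 12.01 CPM with Scrambled, 26.4, 25.4 and 23.7 CPM under siR-1 and 15.3, 14.9 and 16.5 CPM with siR-2. The same order held, with log2 fold changes of 1.01 and 0.30 (adjusted p = 2.24e-09 and 0.00111, edgeR). In TGF-β CFs it stood at 44.5, 54.2 and 50.8 CPM with Scrambled, 57.3, 57.3 and 60.6 CPM under siR-1 and 40.7, 41.7 and 41.4 CPM with siR-2. Scrambled CFs of that table held 3.28 times the untreated level, the siR-1 libraries lay above them and the siR-2 libraries below. Here the log2 fold changes were 0.22 with siR-1 (standard error 0.0599, adjusted p = 0.0109) and −0.27 with siR-2 (standard error 0.0601, adjusted p = 0.00211) in edgeR. The siR-1 call was lost without replicate 3 of siR-1 TGF-β, at an adjusted p of 0.0604. Both effects were lower under TGF-β than without stimulus, with differences of −0.86 for siR-1 (standard error 0.0831, adjusted p = 4.54e-08) and −0.56 for siR-2 (standard error 0.0835, adjusted p = 9.59e-06) on the log2 scale in the joint edgeR fit with Benjamini-Hochberg adjustment. Between the siRNAs, Slc8a1 was lower with siR-2 in all 3 tables, with differences of −0.80, −0.70 and −0.50 log2 (adjusted p = 4.18e-09, 1.41e-07 and 1.07e-05, edgeR).

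Cacna1c, the pore of the L-type calcium channel, fell with both siRNAs in all 3 conditions, and further with siR-2. In untreated CFs it stood at 16.5, 17.5 and 12.8 CPM with Scrambled, 13.4, 11.7 and 12.5 CPM under siR-1 and 6.85, 7.33 and 7.94 CPM with siR-2. The siR-2 libraries lay below all others, whereas 1 Scrambled library, replicate 3, lay among those of siR-1. The log2 fold changes were −0.33 with siR-1 (standard error 0.103, adjusted p = 0.0185) and −1.09 with siR-2 (standard error 0.105, adjusted p = 1.48e-07) in edgeR. The siR-1 call did not hold without replicate 1 or 2 of Scrambled or replicate 2 or 3 of siR-1, with adjusted p values of 0.0833, 0.106, 0.0864 and 0.0525. In IL-17 CFs it stood at 19.0, 19.1 and 19.99 CPM with Scrambled, 12.7, 10.6 and 11.2 CPM under siR-1 and 7.00, 6.56 and 6.53 CPM with siR-2. The 3 groups were fully apart, with log2 fold changes of −0.75 and −1.54 (adjusted p = 3.48e-07 and 2.37e-11, edgeR). In TGF-β CFs it stood at 25.2, 22.5 and 26.8 CPM with Scrambled, 16.6, 15.6 and 16.2 CPM under siR-1 and 10.1, 9.51 and 11.9 CPM with siR-2. The groups were apart here too, with log2 fold changes of −0.63 and −1.24 (adjusted p = 2.35e-05 and 5.85e-09, edgeR). With siR-2 against siR-1 the log2 fold change was −0.77, −0.79 and −0.61 in the 3 tables, each called. No difference of its siRNA effects between a stimulus and untreated CFs was called, and those for IL-17 were −0.42 and −0.44 (adjusted p = 0.117 and 0.125, edgeR). Without replicate 2 of untreated Scrambled both passed, at adjusted p values of 0.0434 and 0.0415.

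Smooth muscle cells also express this channel, and the summed level of 7 smooth muscle and pericyte markers moved in part with it. It was 1519.7 to 1594 CPM with Scrambled, 1727 to 1849 under siR-1 and 847 to 881 with siR-2 in untreated CFs, so it was higher with siR-1, where Cacna1c was lower. In IL-17 CFs it was 1358 to 1385, 1512 to 1612 and 735 to 747 CPM, and in TGF-β CFs 4219.7 to 4420.4, 2760.2 to 2914 and 2099.6 to 2243 CPM. All 7 were above the floor in every library, and Acta2 and Tagln, which activated fibroblasts also express, made up most of the sum. Of the 7 markers, 3 rose and 2 fell with siR-1 and 0 rose and 5 fell with siR-2 in untreated CFs, 2 rose and 3 fell and 1 rose and 5 fell in IL-17 CFs and 0 rose and 5 fell and 1 rose and 5 fell in TGF-β CFs, beside the shares of all genes given above for each comparison. The part of these cells in the Cacna1c values was not tested.

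Kcnj2, the Kir2.1 potassium channel, rose with siR-2 in untreated and IL-17 CFs and was not called with siR-1 against Scrambled in any table. It was the member whose control level differed most with IL-17. Untreated, it stood at 0.484, 0.482 and 0.289 CPM with Scrambled, 0.466, 0.241 and 0.711 CPM under siR-1 and 1.20, 1.64 and 1.11 CPM with siR-2, that is, from 27 to 189 estimated counts. The siR-2 libraries lay above the other 6, and the log2 fold changes were 0.17 with siR-1 (standard error 0.363, adjusted p = 0.776) and 1.64 with siR-2 (standard error 0.359, adjusted p = 0.00098) in edgeR. With IL-17, Kcnj2 stood at 4.29, 3.42 and 5.12 CPM with Scrambled, 3.69, 3.25 and 3.88 CPM under siR-1 and 10.7, 8.78 and 9.43 CPM with siR-2. Scrambled CFs with IL-17 thus held 10.2 times the untreated Scrambled level, with no overlap between the tables and no test across them. The siR-2 libraries were again highest, siR-1 overlapped with Scrambled, and the log2 fold changes were −0.24 with siR-1 (standard error 0.135, adjusted p = 0.179) and 1.17 with siR-2 (standard error 0.133, adjusted p = 9.2e-07) in edgeR. Without replicate 2 of Scrambled IL-17, siR-1 passed as lower (adjusted p = 0.026, edgeR). In TGF-β CFs it stood at 0.564, 0.603 and 0.690 CPM with Scrambled, 1.01, 0.851 and 0.898 CPM under siR-1 and 0.655, 0.527 and 0.641 CPM with siR-2. The siR-1 libraries lay above those of Scrambled and the siR-2 libraries overlapped with them, and neither siRNA was called, with log2 fold changes of 0.56 and −0.027 (adjusted p = 0.145 and 0.961, edgeR). Tested as a difference, the siR-2 effect was lower under TGF-β than without stimulus, with a difference of −1.69 log2 (standard error 0.470, adjusted p = 0.00732, edgeR), and that under IL-17 differed by −0.47 (adjusted p = 0.795, same test). With siR-2 against siR-1 the log2 fold change was 1.47 in untreated and 1.41 in IL-17 CFs, both called, and −0.59 in TGF-β CFs, not called.

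Camk2d, the kinase CaMKIIδ, fell slightly with siR-1 alone in untreated and IL-17 CFs. In untreated CFs it stood at 130.0, 136 and 124 CPM with Scrambled, 119, 116 and 117 CPM under siR-1 and 137, 147 and 128 CPM with siR-2. The siR-1 libraries lay below the other 6, siR-2 overlapped with Scrambled, and the log2 fold changes were −0.16 with siR-1 (standard error 0.0435, adjusted p = 0.00749) and 0.065 with siR-2 (standard error 0.0434, adjusted p = 0.246) in edgeR. Without replicate 3 of siR-2, the siR-2 rise passed as well, at 0.11 log2 (adjusted p = 0.0489, edgeR). In IL-17 CFs it stood at 111, 115 and 111 CPM with Scrambled, 95.01, 95.7 and 99.8 CPM under siR-1 and 115, 121 and 111 CPM with siR-2. The picture was the same, with log2 fold changes of −0.21 and 0.032 (adjusted p = 5.28e-05 and 0.476, edgeR). The siRNAs differed from each other by 0.22 log2 in untreated and 0.24 in IL-17 CFs, both called. In TGF-β CFs it stood at 63.8, 70.2 and 65.6 CPM with Scrambled, 62.3, 71.1 and 68.9 CPM under siR-1 and 65.4, 65.5 and 68.7 CPM with siR-2. All 3 groups overlapped, at 0.512 times the untreated level in Scrambled CFs, with differences from Scrambled of 0.014 and −0.00037 log2 (standard errors 0.0516 and 0.0516).

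**Figure D3:**
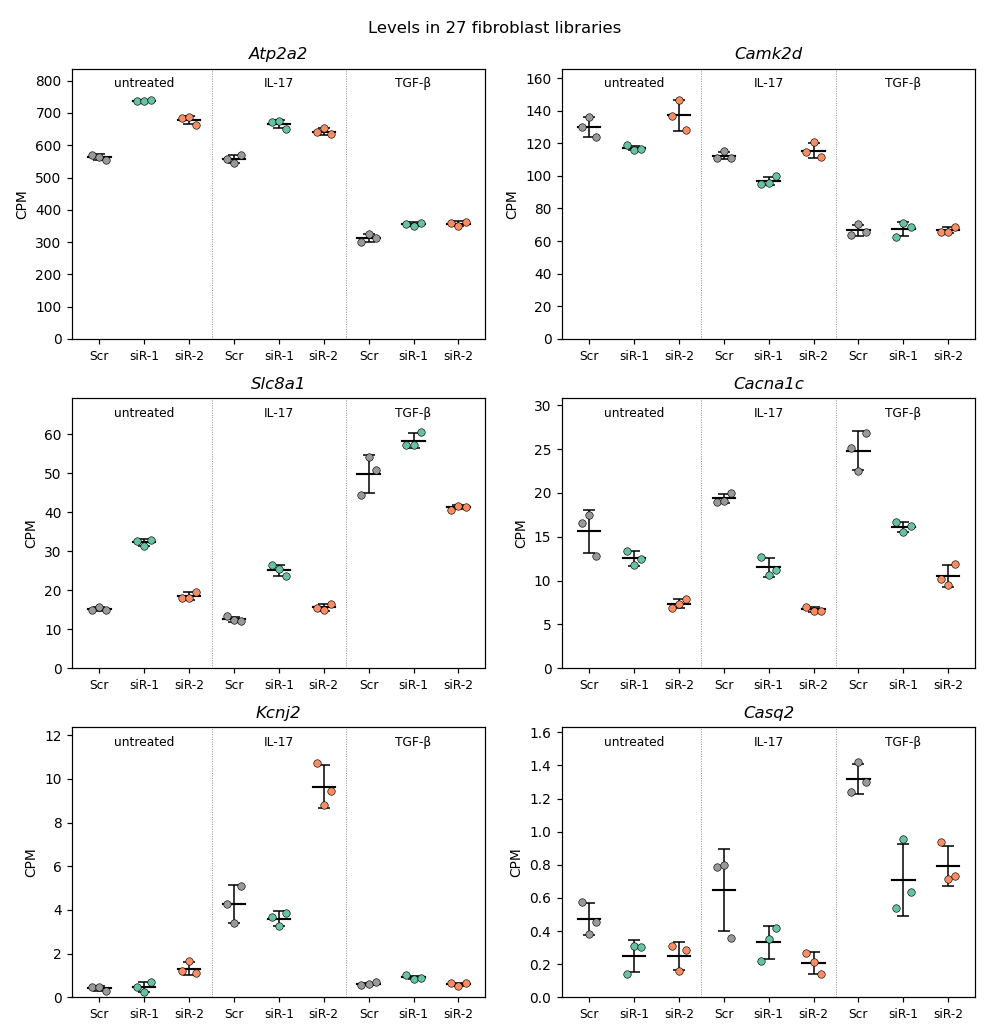
CPM (y axes, linear from 0) of the 6 members measured best in CFs, in the 3 groups of the untreated, IL-17 and TGF-β tables, separated by dotted lines. Points are libraries, long bars the mean and error bars the SD (n = 3 each); Cacna1c steps down from Scrambled (Scr) to siR-1 to siR-2 in every table, and Kcnj2 is highest with siR-2 and IL-17.

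The genes of the muscle SR were scarce in CFs. Casq2, the luminal calcium buffer, was the best measured of them, at 1.24, 1.42 and 1.30 CPM with Scrambled, 0.537, 0.954 and 0.636 CPM under siR-1 and 0.935, 0.712 and 0.736 CPM with siR-2 in TGF-β CFs, or 57 to 153 estimated counts. Every knockdown library lay below every Scrambled library, and the log2 fold changes were −0.90 with siR-1 (standard error 0.264, adjusted p = 0.0193) and −0.73 with siR-2 (standard error 0.263, adjusted p = 0.045) in edgeR. Leaving out 1 library removed the siR-1 call in 4 cases (replicates 2 and 3 of Scrambled, 1 and 3 of siR-1), with adjusted p from 0.05002 to 0.0982, and the siR-2 call in 6 cases (all 3 of Scrambled, replicate 3 of siR-1, 2 and 3 of siR-2), with adjusted p from 0.0559 to 0.129. With IL-17, Casq2 stood at 0.787, 0.796 and 0.360 CPM with Scrambled, 0.223, 0.352 and 0.421 CPM under siR-1 and 0.269, 0.216 and 0.139 CPM with siR-2, and the log2 fold changes were −0.96 with siR-1 (standard error 0.418, adjusted p = 0.0781) and −1.64 with siR-2 (standard error 0.430, adjusted p = 0.00383) in edgeR. The siR-1 call was gained without replicate 3 of Scrambled IL-17 (adjusted p = 0.027, edgeR). Untreated CFs held 0.382 to 0.575 CPM of Casq2 with Scrambled, 0.141 to 0.313 under siR-1 and 0.157 to 0.309 with siR-2, and the log2 fold changes were −0.91 and −0.92 and did not pass (adjusted p = 0.127 and 0.106, edgeR).

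Ryr2, the release channel, held 6, 20 and 18 estimated counts in the Scrambled IL-17 libraries, 42, 33 and 49 under siR-1 and 35, 27 and 24 with siR-2. It was called higher with siR-1 (adjusted p = 0.0256, edgeR), from a Scrambled group with 1 library above the floor, and the call was lost without replicate 1 of Scrambled IL-17 or replicate 1 or 3 of siR-1 IL-17 (adjusted p = 0.083, 0.0559 and 0.084). In the other 5 comparisons with Scrambled it was not called, at 38 to 98 estimated counts in untreated and 13 to 36 in TGF-β CFs. Pln, the SERCA2 inhibitor, held 19, 38 and 15 estimated counts in the untreated Scrambled libraries, 6, 0 and 0 with siR-1 and 0 in all 3 siR-2 libraries. It was therefore at least 1.27-fold lower with siR-2, taking the floor of 3 read pairs per library, and was called (adjusted p = 0.00592, edgeR). The bound rests on Scrambled replicate 2, without which the mean of the other Scrambled libraries lies under the floor and leaves none. With siR-1 it was not called (adjusted p = 0.0719), though it was without siR-1 replicate 1 (adjusted p = 0.0226). In the other CF tables Pln was above the floor in 1 library of 18. Hrc was above it in 6 of 27 CF libraries, at most 40 estimated counts, and was called in no comparison.

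Residual muscle cells in the cultures would carry these transcripts, and the summed level of the 12 cardiomyocyte markers also differed between groups. It was 90.0 to 98.5 CPM with Scrambled, 42.3 to 47.5 under siR-1 and 27.9 to 32.8 with siR-2 in untreated CFs, 70.2 to 77.6, 32.0 to 35.3 and 23.4 to 26.0 CPM with IL-17, and 6.03 to 6.73, 4.43 to 5.82 and 4.01 to 4.60 CPM with TGF-β. Tnnt2 alone made up nearly all of it in the first 2 tables, where 3 or 4 of the 12 were above the floor in every library of a group. Myh6, the main heavy chain of the adult mouse heart, at 16185 to 17762 CPM in the Het hearts, held at most 11 estimated counts in any CF library. The part of such cells in the Casq2, Ryr2 and Pln values was not tested.

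**Figure D4:**
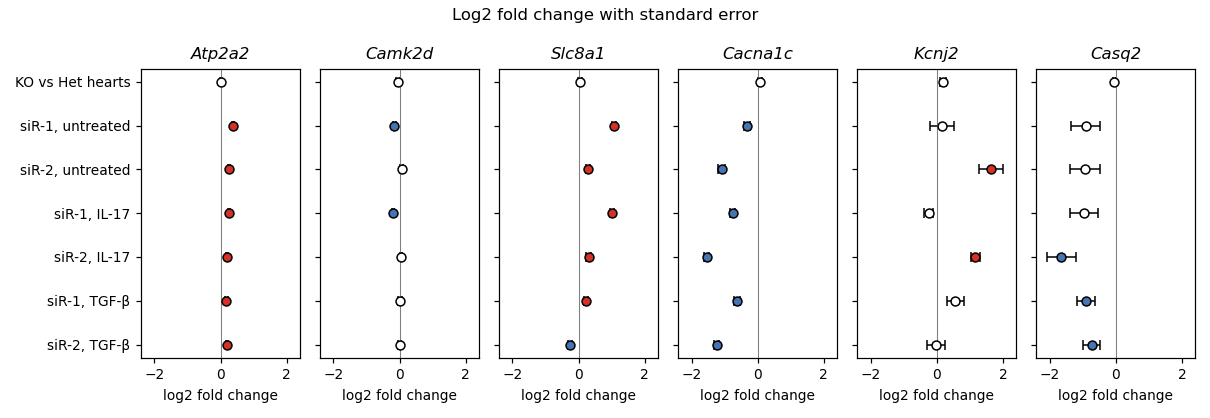
Log2 fold change (x axes) of the same 6 genes in KO against Het hearts (n = 4 each) and with each siRNA against Scrambled in the 3 CF tables (n = 3 each), with error bars of 1 standard error. Filled points passed an adjusted p of 0.05 in edgeR (red higher, blue lower) and open points did not; Atp2a2 is filled red and Cacna1c filled blue in all 6 CF rows, and all 6 genes are open in hearts.

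Around the members, the 120 pathway genes moved to both sides, with more called lower than higher in each of the 6 comparisons with Scrambled by the quasi-likelihood test of edgeR after Benjamini-Hochberg correction. In untreated CFs 100 could be tested, with 23 rising and 32 falling under siR-1 and 26 rising and 38 falling under siR-2, beside 19.5% higher and 20.4% lower and 24.4% higher and 25% lower of all genes tested. The counts were 22 rising and 34 falling and 25 rising and 35 falling of 99 in IL-17 CFs, beside 20.3% higher and 21.9% lower and 25% higher and 25.6% lower of all genes. In TGF-β CFs they were 14 rising and 18 falling and 18 rising and 29 falling of 102, beside 11.7% higher and 11.4% lower and 15.1% higher and 14.8% lower. These shares of all genes are the background of every list count that follows, and no list was tested against it. Median log2 fold changes ran from −0.20 to −0.028, beside −0.020 to 0.013 over all genes tested.

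Among the partners of RyR2 and calsequestrin in SR release and store, of 17 genes tested in untreated CFs, 3 rose and 5 fell with siR-1, against 3 rising and 6 falling with siR-2. With IL-17 and 16 tested, 2 rose and 3 fell with siR-1, against 3 rising and 4 falling with siR-2, and with TGF-β and 16 tested, 1 rose and 4 fell, against 3 rising and 4 falling, and the list's median log2 fold change lay between −0.22 and 0.024 in the 6 comparisons. Tmem38b, a potassium-permeable channel of the endoplasmic reticulum that balances charge during calcium release, rose with both siRNAs, from 17.1, 15.0 and 16.2 CPM with Scrambled to 41.7, 41.3 and 40.7 under siR-1 and 43.3, 41.2 and 42.1 with siR-2 in untreated CFs (log2 fold changes 1.35 and 1.38, standard errors 0.0538 and 0.0538). With IL-17 its log2 fold changes were 1.14 and 1.39, and with TGF-β 0.71 and 0.58, all called higher. Trdn, which tethers calsequestrin to the ryanodine receptor, was called higher with both siRNAs in untreated CFs, at 0.256 to 0.357, 0.528 to 0.670 and 0.449 to 1.28 CPM, and its siR-1 call was lost without replicate 1 or 3 of Scrambled or 2 or 3 of siR-1 (adjusted p from 0.0825 to 0.0985). Among SERCA pumps and their regulators, of 6 genes tested in untreated CFs, 2 rose and 0 fell with siR-1, against 3 rising and 0 falling with siR-2. With IL-17 and 7 tested, 4 rose and 1 fell with siR-1, against 3 rising and 1 falling with siR-2, and with TGF-β and 7 tested, 2 rose and 1 fell, against 3 rising and 1 falling, and the list's median log2 fold change lay between −0.075 and 0.26 in the 6 comparisons.

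In the list around Cacna1c, the voltage-gated calcium channel subunits, of 11 genes tested in untreated CFs, 2 rose and 2 fell with siR-1, against 0 rising and 6 falling with siR-2. With IL-17 and 10 tested, 2 rose and 4 fell with siR-1, against 0 rising and 4 falling with siR-2, and with TGF-β and 12 tested, 1 rose and 2 fell, against 0 rising and 4 falling, and the list's median log2 fold change lay between −0.53 and −0.11 in the 6 comparisons. Rrad, a small GTPase that restrains the L-type channel, fell in IL-17 CFs from 2.82, 3.48 and 2.32 CPM with Scrambled to 0.900, 1.13 and 0.986 under siR-1 and 0.884, 0.621 and 0.998 with siR-2 (log2 fold changes −1.51 and −1.79, standard errors 0.221 and 0.223). Cacna1g, the pore of a T-type channel, fell in TGF-β CFs from 4.17, 4.69 and 3.76 CPM to 2.33, 2.89 and 2.69 under siR-1 and 1.26, 1.12 and 1.06 CPM with siR-2 (log2 fold changes −0.68 and −1.87, standard errors 0.151 and 0.159). Plasma membrane pumps and exchangers, the company of Slc8a1, also divided, since of 11 genes tested in untreated CFs, 3 rose and 2 fell with siR-1, against 5 rising and 3 falling with siR-2. With IL-17 and 11 tested, 3 rose and 2 fell with siR-1, against 5 rising and 3 falling with siR-2, and with TGF-β and 11 tested, 2 rose and 3 fell, against 3 rising and 5 falling, and the list's median log2 fold change lay between −0.18 and 0.15 in the 6 comparisons.

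Among potassium channels other than Kcnj2, of 13 genes tested in untreated CFs, 2 rose and 5 fell with siR-1, against 2 rising and 3 falling with siR-2. With IL-17 and 13 tested, 2 rose and 5 fell with siR-1, against 2 rising and 5 falling with siR-2, and with TGF-β and 14 tested, 1 rose and 0 fell, against 1 rising and 3 falling, and the list's median log2 fold change lay between −0.67 and 0.38 in the 6 comparisons. Kcne4, an auxiliary subunit that inhibits potassium channels, rose with both siRNAs, from 36.0, 37.4 and 42.2 CPM with Scrambled to 131, 131 and 131 under siR-1 and 119.8, 120.3 and 128 with siR-2 in untreated CFs (log2 fold changes 1.75 and 1.66, standard errors 0.0490 and 0.0489). With IL-17 it rose by 1.52 and 1.94 log2 and with TGF-β by 0.42 and 0.37. Kcna5, the channel Kv1.5, fell from 2.36, 1.55 and 1.49 CPM to 0.158, 0.214 and 0.204 under siR-1 and 0.120, 0.261 and 0.138 CPM with siR-2 (log2 fold changes −3.23 and −3.39, standard errors 0.342 and 0.345), and was also called lower with both in IL-17 CFs, at 268, 247 and 182 estimated counts with Scrambled, 59, 22 and 41 under siR-1 and 12, 12 and 12 in the siR-2 libraries, these last all under the floor. In TGF-β CFs it was called with neither siRNA, at 0 to 44 estimated counts. In IL-17 CFs Kcnd3 (Kv4.3) rose by 2.57 and 1.19 log2.

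Among sodium and pacemaker channels, of 8 genes tested in untreated CFs, 2 rose and 3 fell with siR-1, against 2 rising and 3 falling with siR-2. With IL-17 and 8 tested, 1 rose and 5 fell with siR-1, against 2 rising and 4 falling with siR-2, and with TGF-β and 7 tested, 0 rose and 2 fell, against 0 rising and 2 falling, and the list's median log2 fold change lay between −0.82 and −0.0029 in the 6 comparisons. Scn7a, a sodium channel that glia and other non-neuronal cells express, rose from 31.3, 29.4 and 31.5 CPM with Scrambled to 75.0, 68.4 and 66.5 under siR-1 and 113, 124 and 108 with siR-2 in untreated CFs (log2 fold changes 1.18 and 1.89, standard errors 0.0543 and 0.0549), and by 1.11 and 1.91 log2 with IL-17. In TGF-β CFs its log2 fold changes were 0.20, not called, and −0.20, called lower (adjusted p = 0.058 and 0.0498, edgeR). Scn4b, a sodium channel beta subunit, was called lower with both siRNAs in IL-17 CFs, at 62, 65 and 65 estimated counts with Scrambled, 27, 7 and 7 under siR-1 and 28, 23 and 12 in the siR-2 libraries. The call with siR-2 was lost without any 1 of the Scrambled libraries or replicate 2 or 3 of siR-2 (adjusted p up to 0.0996, edgeR). In the list around Camk2d, which covers CaMKII, PKA and beta-adrenergic control, of 19 genes tested in untreated CFs, 4 rose and 10 fell with siR-1, against 6 rising and 10 falling with siR-2. With IL-17 and 19 tested, 2 rose and 10 fell with siR-1, against 6 rising and 8 falling with siR-2, and with TGF-β and 19 tested, 4 rose and 3 fell, against 5 rising and 7 falling, and the list's median log2 fold change lay between −0.33 and 0.027 in the 6 comparisons. Adrb1, the β1-adrenergic receptor, held 169, 116 and 114 estimated counts with Scrambled, 6, 21 and 30 under siR-1 and 0, 12 and 11 in the siR-2 libraries of untreated CFs, these last all under the floor, and was called lower with both siRNAs. In IL-17 CFs all 3 siR-2 libraries were at 0, so that it was at least 4.03-fold lower against the floor of 3 read pairs per library, and the siR-1 call was not made by DESeq2 (adjusted p = 0.148). Akap5, an anchor of PKA, fell in TGF-β CFs from 11.2, 12.9 and 10.4 CPM to 5.52, 6.17 and 5.87 under siR-1 and 4.50, 3.697 and 4.41 CPM with siR-2 (log2 fold changes −0.98 and −1.45, standard errors 0.106 and 0.108). For store-operated entry, IP3 receptors and TRP channels, routes of calcium in cells that do not beat, of 15 genes tested in untreated CFs, 5 rose and 5 fell with siR-1, against 5 rising and 7 falling with siR-2. With IL-17 and 15 tested, 6 rose and 4 fell with siR-1, against 4 rising and 6 falling with siR-2, and with TGF-β and 16 tested, 3 rose and 3 fell, against 3 rising and 3 falling, and the list's median log2 fold change lay between −0.041 and 0.081 in the 6 comparisons.

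**Figure D5:**
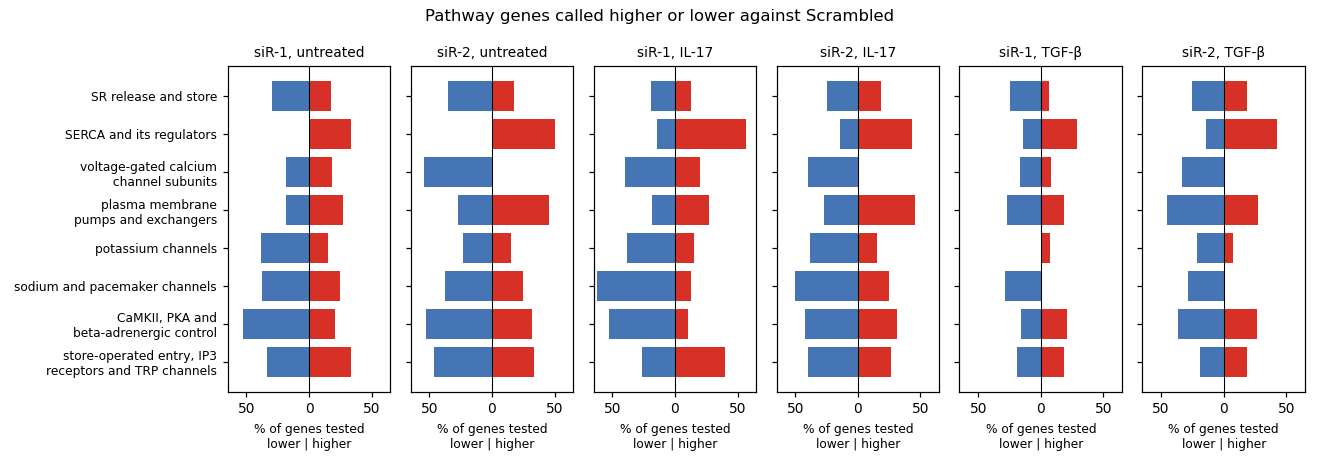
Share of tested genes in each of the 8 pathway lists that was called lower (blue, to the left) or higher (red, to the right) with siR-1 or siR-2 against Scrambled in each CF table (x axes, percent of genes tested). Most lists have bars to both sides in each panel. Voltage-gated calcium channel subunits have none to the right with siR-2, and SERCA and its regulators none to the left in untreated CFs. Sodium and pacemaker channels have none to the right with TGF-β, and potassium channels none to the left with siR-1 and TGF-β. Of all genes tested, 11.4% to 25.6% were called lower and 11.7% to 25% higher.

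Across the 27 CF libraries, after the mean of each table was subtracted, the patterns closest to the 5 members of at least 1 CPM on average came from 9259 genes of at least 10 CPM. For Atp2a2 they were Tmx3 (r 0.98) and Dbt (r 0.97), for Cacna1c Synpo (r 0.98) and Nacc2 (r 0.96) and for Slc8a1 Lclat1 (r 0.97) and Bcl2l2 (r 0.97). For Kcnj2 they were Glul (r 0.94) and Egfr (r 0.94) and for Camk2d Epb41l2 (r 0.89) and Rb1 (r 0.88). The libraries fall into siRNA groups, so these r values mostly rank genes by how alike their group means are.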

How the data were processed

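RNA-Seq libraries, 8 of mouse hearts and 27 of CFs, were analysed from 4 tables of the same genes. Per the labels and the paper's methods, the authors trimmed reads with cutadapt, aligned them to GRCm38 with HISAT2 and quantified them with StringTie. The heart table holds read counts and the CF tables hold estimated counts as deposited by the authors, not normalized. The step from StringTie to whole numbers, the strand setting and the annotation release are not given in the sources used here. The CF estimates are several times the number of read pairs, which overstates their depth, and dividing them by 6 was tried as an alternative. Groups came from the sample labels. Heart columns were placed by the genotype in their names. The siRNA columns of untreated and IL-17 CFs carry siRNA numbers that their own labels do not give. These were matched to siR-1 and siR-2 through the descriptions of the TGF-β samples.

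The tables were fitted one by one with edgeR 4.0.16 in R 4.3.3 (TMM, filterByExpr, robust quasi-likelihood test), with Benjamini-Hochberg adjustment over all genes tested and calls at an adjusted p of 0.05. DESeq2 1.42.0, the authors' tool, was an alternative. Differences between stimulated and untreated effects came from joint fits of 18 libraries. Other alternatives were RLE scaling, other filters, a fold threshold, the 2 compared groups by themselves, a block for the replicate number and each library left out. Exon lengths came from GENCODE vM21 and promoters from RefSeq. The 9 genes, the pathway lists and the tests were chosen with earlier results of these data known. Named pathway genes were those called and changed at least 2-fold with both siRNAs in a table, the 3 called genes per table with the largest mean change and, in hearts, the 3 with the lowest p, some of which are not reported here. The fitting steps were tested on simulated data.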

Additional observations from a re-analysis of the deposited data

Results flagged for a closer look

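In each genotype of hearts, for the 9 members, the 3 pathway genes of lowest p and the IAMP transcript, the highest and the lowest heart were compared with the rest of their group by Dixon's rule, under which chance marks about 1 in 20 groups. Atp2a2 in Het heart 1147, at 9378 CPM, stood apart above the other 3 Het hearts, with a gap of 0.836 of the group's range. Kcnj2 in Het heart 1150, at 27.7 CPM, stood apart below the others, with a gap of 0.881. These were 2 of 26 groups looked at.

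The siRNA effect differed between TGF-β and untreated CFs, by the joint fit in edgeR, for 3 members. Over all genes tested, 19.6% were called for this difference with siR-1 and 30.2% with siR-2. For Atp2a2 the siR-1 effect differed by −0.21 log2. For Slc8a1 the siR-1 effect differed by −0.86 and the siR-2 effect by −0.56. For Kcnj2 the siR-2 effect differed by −1.69. Stimulus and table cannot be told apart in these values.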

How the results depend on the processing

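Leaving aside the stimulus differences not called in edgeR, of 1761 refitted log2 fold changes, 1688 kept direction and call, 37 lost the call, 7 gained it and 29 changed sign. Those that changed sign were all uncalled, and the cause was not tested. Among the stimulus differences left aside, 6 refits gained a call. With CPM by library total, 12 of 99 levels moved by more than 1 SD of their group. The number of members called stayed within 1.5 times in 252 of 266 refits. When a log2 fold change of at least 1, or the log2 of 1.5 in IL-17 and TGF-β CFs, was also asked for, calls against Scrambled numbered 1 with siR-1 and 3 with siR-2 in untreated, 3 and 3 in IL-17 and 2 and 2 in TGF-β CFs. With siR-2 against siR-1 they numbered 1 in untreated and 1 in TGF-β CFs, and in IL-17 CFs Cacna1c, Slc8a1 and Kcnj2 passed. For the TGF-β differences, where a log2 fold change of at least 1 was asked for, they numbered 0 with siR-1 and 1 with siR-2. That threshold removes small changes such as those of Atp2a2 by construction. The share of all genes that passes it was not taken, so these counts have no background beside them. DESeq2 called 1 member, Atp2a2, for the IL-17 difference with siR-1, where 302 of all genes were called higher and 440 lower.

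Sign changes came with estimated counts divided by 6 for Ryr2 with siR-1 in untreated CFs (0.022) and, for Camk2d with siR-2 in TGF-β CFs, with that division (8.9e-05), with no filter on low counts (0.00016) and with the replicate block (0.00087). Leaving out 1 library, the members called with siR-1 in TGF-β CFs numbered 2 to 4 and those for the IL-17 difference 0 to 1 for siR-1, likewise 0 to 1 for siR-2. Log2 fold changes then ran, in hearts, from −0.026 to 0.037 for Ryr2, −0.011 to 0.036 for Atp2a2, −0.0031 to 0.070 for Pln, −0.091 to 0.0036 for Casq2 and −0.0093 to 0.062 for Slc8a1. In untreated CFs with siR-1 they ran from −0.34 to 0.26 for Ryr2 and −0.25 to 0.49 for Kcnj2. In IL-17 CFs the ranges were −0.33 to 1.69 for Hrc with siR-1 and −0.0037 to 0.050 for Camk2d with siR-2. In TGF-β CFs they were −0.027 to 0.067 for Camk2d with siR-1, and −0.089 to 0.063 for Kcnj2 and −0.029 to 0.041 for Camk2d with siR-2. Without 1 library, Camk2d also passed for the TGF-β difference with siR-1, at 0.21 (adjusted p = 0.0485) without untreated Scrambled replicate 3 and 0.22 (adjusted p = 0.0338) without siR-1 TGF-β replicate 1, in edgeR.

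Same-numbered CF libraries did not deviate together (r of −0.10 to 0.060 untreated, −0.059 to 0.051 with IL-17 and −0.17 to 0.042 with TGF-β). For libraries of different numbers, r ran from −0.13 to 0.18, −0.050 to 0.055 and −0.098 to 0.21. Deviations from means of 3 libraries cannot show whether same-numbered libraries shared a culture or batch. With the number as a replicate block, the members called with siR-2 in TGF-β CFs went from 4 to 3, Casq2 dropping out at −0.72 (adjusted p = 0.0624 in edgeR). It also missed with no filter on low counts (0.0742). With at least 10 counts asked of every library, Casq2 was called with siR-1 in IL-17 CFs (adjusted p = 0.0332) and with siR-2 in untreated CFs (0.0419). Heart columns carry no shared number, so the block was not run there, nor was sex as a covariate, since all hearts were of 1 sex. With 3 libraries a group and values near 3 read pairs, changes in Ryr2, Pln and Hrc in CFs were detectable only if large.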
